A study of Mus musculus with 112 samples.

Results

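Sperm of smoke-exposed Nrf2-/- males was compared with sperm of smoke-exposed wild type (WT) males. These were 18 of the 112 libraries of the series, 9 of each genotype, and they were taken as all library columns of the tables that hold smoked Nrf2-/- and smoked WT F0 sperm. The readout was DNA methylation (DNAme) from reduced representation bisulfite sequencing (RRBS), in which restriction enzymes enrich CpG-rich DNA and bisulfite turns unmethylated cytosines into bases read as thymine. The question was how the sperm methylome of males without NRF2 differs from that of WT males when both genotypes have breathed cigarette smoke (CS).

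The WT males carried the strain label C57BL/6J wild type and the Nrf2-/- males the label NRF-/-. By the methods, the WT mice and the Nrf2-/- line, kept on a C57BL/6J background, were separate stocks of the same supplier, so that genotype and stock cannot be told apart. Both groups of mice breathed research cigarette smoke from a smoking machine on 5 days a week, starting as young adults of matched age, over about the length of a pair of spermatogenic cycles. Sperm was taken within days of the last exposure. Males of both genotypes in this comparison were therefore exposed, and the unexposed libraries (control Nrf2-/-, n = 10, and control WT, n = 10) were used only where they are named. F1 brain is described where named, and those sons of Nrf2-/- sires carry 1 targeted allele and have a CAST/EiJ mother.

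NRF2, encoded by Nfe2l2, is a transcription factor held in check by KEAP1. Oxidants and electrophiles, both plentiful in CS, release it to switch on genes for glutathione synthesis, quinone reduction and xenobiotic conjugation. Sperm DNA has a characteristic pattern of DNAme, set in the male germline before and shortly after birth and then maintained through spermatogonial divisions. CpG-rich promoters are largely unmethylated in it and most other CpGs are methylated.

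Cytosines with a value in at least 4 libraries of both groups were scored, and scoreable cytosines at most 100 bp apart were joined into regions of at least 3 cytosines and more than 50 bp. This gave 1116708 cytosines and 66384 regions, with a median of 6 cytosines per region. The libraries held between 901592 and 1547591 positions with a value in smoked Nrf2-/- sperm and between 955186 and 1855546 in smoked WT sperm. At the targeted gene the libraries differed by label. The gene lies within a segment of chromosome 2, described later, that held 245 cytosines read in smoked WT only. Cytosines missing there do not single out the targeted change. Of the 12 cytosines of Nfe2l2 read in the smoked WT libraries, 4 between 75676209 and 75676369 on chromosome 2 (mm10) had a value in 9 of 9 smoked WT and 0 of 9 smoked Nrf2-/- libraries, and the other 8 had a value in at least 8 smoked libraries of each genotype. Promoters of maternally imprinted genes, methylated in somatic cells on the maternal allele and unmethylated in sperm, served as a check on the cell type. Their mean DNAme over 212 cytosines was 0.445% to 1.25% in the smoked Nrf2-/- libraries and 0.63% to 1.15% in the smoked WT libraries. Snrpn, Mest and Kcnq1ot1, of the 14 listed genes, had no cytosine in this mean, and a tested promoter region of Nnat had 11.5% and 9.19%. The control regions of 5 paternally imprinted genes were to read near 100%. At the starts of these genes the means were 0% to 1.21% and 0.393% to 2.08%, so this part of the check was not met there. The Meg3 mean rested on 4 cytosines in 5 smoked Nrf2-/- and 6 smoked WT libraries. A tested region of Meg3 classed as promoter had 89.5% and 84.4%. Whether the cytosines read lie in the control regions was not tested. The facility numbers in the column headings ran from 4 to 20 for smoked Nrf2-/- and from 22 to 67 for smoked WT, so that genotype and anything that goes with these numbers cannot be told apart.

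The regions on which the results turn are given on the forward strand of mm10. Capitals mark the cytosines of the region with a percent of their own, a C for the forward strand and a G for the cytosine opposite it on the reverse strand. Crhbp and Tanc1 are shown for a change at a single cytosine, Osbpl6 for changes in both directions within a region, Iqgap2, Pla2r1, Dlk1 and Nog for falls over the whole region, and Mrto4 and Lmo7 for rises.
Crhbp, chr13:95451312-95451428, intergenic: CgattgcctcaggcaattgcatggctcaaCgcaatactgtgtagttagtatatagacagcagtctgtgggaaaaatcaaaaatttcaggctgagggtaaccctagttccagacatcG
Tanc1, chr2:59673571-59673685, intron: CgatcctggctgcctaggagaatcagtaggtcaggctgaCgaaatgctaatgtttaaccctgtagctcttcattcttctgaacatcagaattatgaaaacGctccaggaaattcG
Osbpl6, chr2:76447349-76447413, intron: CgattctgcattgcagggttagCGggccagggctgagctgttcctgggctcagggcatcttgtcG
Iqgap2, chr13:95818469-95818611, intron: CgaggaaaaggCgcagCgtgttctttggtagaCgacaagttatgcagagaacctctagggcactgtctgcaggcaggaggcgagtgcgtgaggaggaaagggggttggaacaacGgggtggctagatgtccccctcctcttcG
Pla2r1, chr2:60497571-60497698, coding exon: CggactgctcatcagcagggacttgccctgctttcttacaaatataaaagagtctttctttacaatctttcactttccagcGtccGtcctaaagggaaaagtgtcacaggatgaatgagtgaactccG
Dlk1, chr12:109459811-109459902, coding exon: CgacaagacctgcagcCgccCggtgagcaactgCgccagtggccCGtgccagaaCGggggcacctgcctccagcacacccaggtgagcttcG
Nog, chr11:89269166-89269272, intergenic: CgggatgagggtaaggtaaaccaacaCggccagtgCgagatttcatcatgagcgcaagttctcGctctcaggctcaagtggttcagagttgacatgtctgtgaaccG
Mrto4, chr4:139334703-139334813, intergenic: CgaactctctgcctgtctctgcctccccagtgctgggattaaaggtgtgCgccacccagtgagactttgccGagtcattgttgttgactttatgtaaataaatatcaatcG
Lmo7, chr14:101887009-101887176, coding exon: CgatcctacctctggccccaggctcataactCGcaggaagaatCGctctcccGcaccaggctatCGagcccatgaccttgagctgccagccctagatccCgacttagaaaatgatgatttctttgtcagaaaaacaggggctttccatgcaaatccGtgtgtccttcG

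Mean DNAme did not separate the genotypes. Over the scoreable cytosines it had a lowest, median and highest value of 31.7%, 35.5% and 39.5% in the smoked Nrf2-/- libraries and 30.9%, 35.05% and 38.7% in the smoked WT libraries. The means were 35.8% ± 2.25 (SD, n = 9) and 35.1% ± 2.43 (SD, n = 9), and the difference of 0.639 points was within the spread between libraries (exact permutation test over libraries, two-sided, p = 0.569). Each of these library means covers the cytosines that the library read, so levels and spread depend in part on that set. Over the 454501 cytosines read in all 18 libraries the means were 45.04% ± 0.677 and 44.8% ± 1.14 (SD, n = 9 each). The difference there was 0.193 points (same test, p = 0.699). For the scatter of single libraries, the median distance of a region from the mean of the other libraries of its group was 1.2 ± 0.195 points in smoked Nrf2-/- and 1.1 ± 0.163 points in smoked WT (SD, n = 9 each). The difference was within the spread between libraries (permutation test over all splits, two-sided, p = 0.253). The distances were computed within the labelled groups and not anew for each split, so this p is not exact.

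Single regions did differ. By size alone, with at least 33.3% of the cytosines and the mean of the region changed by more than 5 points, 4039 regions were differentially methylated regions (DMRs), which is 6.08% of all regions, 2016 of them higher and 2023 lower in smoked Nrf2-/-. This balance depended on the joining rule, since 5083 were higher and 3367 lower with joining at 300 bp. Of the 1116708 single cytosines, 13.7% differed by more than 5 points between the group means, 85847 higher and 66961 lower. Single cytosines were not tested. When the spread between libraries was included, limma called 139 of 66365 tested regions (Benjamini-Hochberg adjusted p below 0.05), which is 0.209% of them. Of these, 73 were higher (0.11% of the tested regions) and 66 lower (0.0995%) in smoked Nrf2-/-. Of the DMRs that could be tested, 2.95% were among the limma calls, and 119 of the 139 calls were DMRs. An unadjusted p below 0.05 was found for 4184 regions, 6.3% of those tested. The median change over all tested regions was 0.00834 points. Over the calls, the groups of libraries did not overlap at 27 of the 73 higher regions and 41 of the 66 lower regions, against 0.175% of all tested regions.

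The fall with the smallest p was in a short stretch beside Crhbp, the gene of the binding protein of corticotropin-releasing hormone. The lowest, median and highest smoked Nrf2-/- library had 62.9%, 64.05% and 65.3% DNAme there, and the smoked WT libraries 96.2%, 97.6% and 98.2%. The libraries of the genotypes lay far apart, with a difference of -33.3 ± 0.384 points (SE; limma, adjusted p = 2.58e-19). A neighbouring intergenic region near Aggf1, which encodes an angiogenic factor, had 57.9%, 62.4% and 63.9% in smoked Nrf2-/- and 92.5%, 96.1% and 97.2% in smoked WT. An intronic region of Creb5, a gene of the CREB family of transcription factors, lay on chromosome 6 and had 58.4%, 60.9% and 63.5% in smoked Nrf2-/- against 92.8%, 96.4% and 97.2% in smoked WT. The differences at Aggf1 and Creb5 were -33.7 and -34.4 points (limma, adjusted p = 1.15e-14 and 2.38e-14).

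These falls were carried by 1 cytosine each. At the Crhbp region, the cytosine at position 30 of the printed sequence had a mean of 0.111% in smoked Nrf2-/- and 97.9% in smoked WT, while the other cytosines of the region had 95.6% and 96.6% against 98.03% and 96.2%. At Tanc1, which encodes a scaffold protein of excitatory synapses, position 101 read 0 in all 9 smoked Nrf2-/- libraries and 96.8% on average in smoked WT, and the mean of every other cytosine of the region lay between 95.3% and 96.7% in both genotypes. The same held in the introns of Hapln1, a gene for a link protein of cartilage matrix that is named here after its values were seen, and Arsb, the lysosomal arylsulfatase B, and in Myo3b, an unconventional myosin of sensory cells. Their falls were -23.2, -22.4 and -23.5 points and a single cytosine held 97.4%, 92.2% and 92.03% of the summed change. In all, 20 of the 66 lower calls, and 0 of the 73 higher calls, held a cytosine at 5% or less in smoked Nrf2-/- and 80% or more in smoked WT, against 22 of the 66365 tested regions. Such a cytosine itself lowers the region mean, so the direction of these calls is not free of this rule. Of the 20 lower calls, 12 had at most 1 cytosine changed by more than 5 points. Across the scoreable cytosines 51 switched in this direction and 1 in the opposite direction. Bisulfite sequencing reads an unmethylated cytosine and a thymine in the genome alike, so at a switched cytosine loss of DNAme and a difference in base between the mice cannot be told apart.

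**Figure D1:**
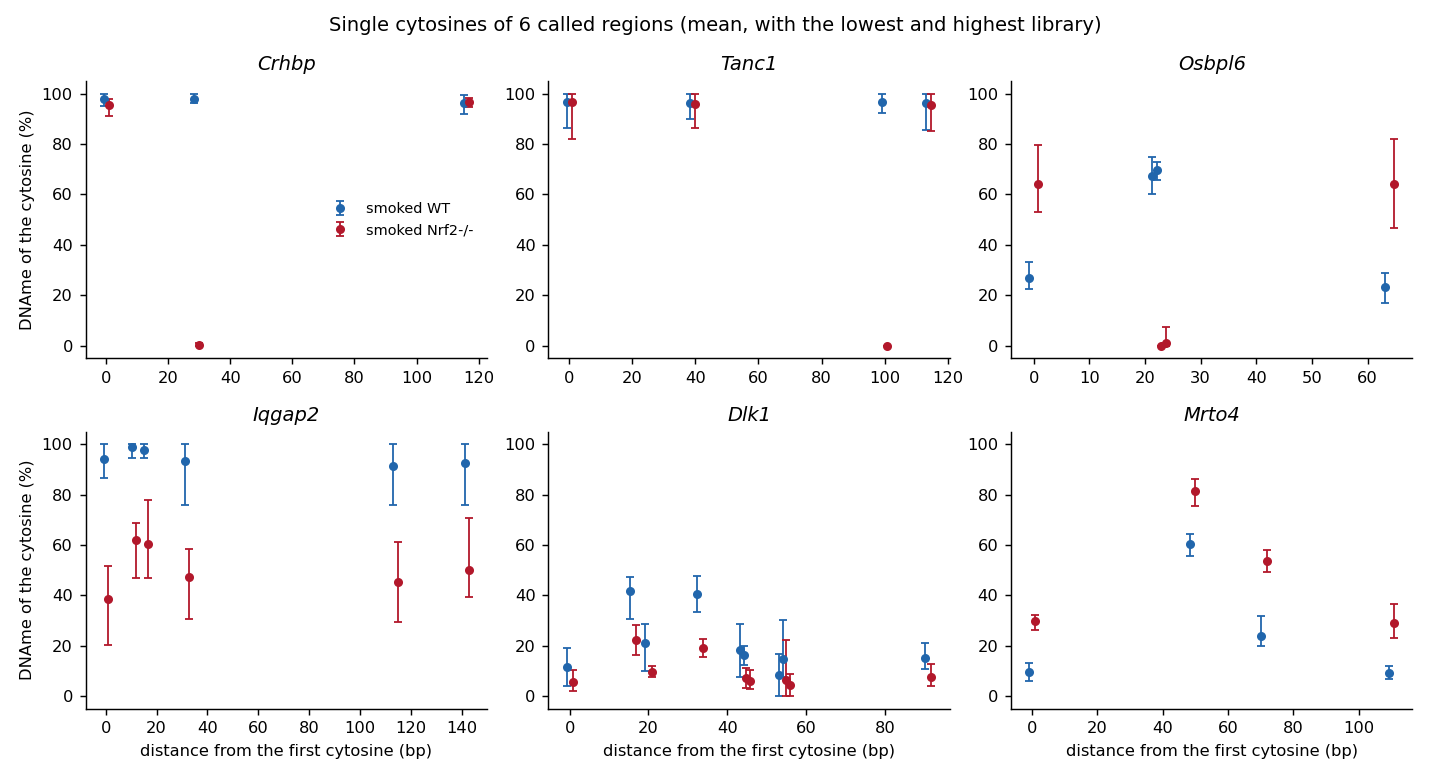
DNAme (%) of each scored cytosine against its distance (bp) from the first cytosine of the region in 6 called regions, as group means of smoked WT (blue) and smoked Nrf2-/- (red) with bars from the lowest to the highest library. At Crhbp and Tanc1 a single cytosine separates the genotypes, at Osbpl6 the inner and outer cytosines move in opposite directions, and at Iqgap2, Dlk1 and Mrto4 the means of all scored cytosines moved the same way.

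Other falls ran over whole regions. Iqgap2 encodes a scaffold protein that binds small GTPases. Its intronic region had 36.8%, 49.4% and 61.1% (lowest, median and highest library) in smoked Nrf2-/- and 90.6%, 95.6% and 97.8% in smoked WT, with no overlap. Each of its 6 cytosines was lower, by between 37.2 and 55.6 points, and the region changed by -44.2 ± 2.46 points (SE; limma, adjusted p = 6.8e-09). A coding exon of Pla2r1, the receptor of secreted phospholipase A2, fell from 31.3% ± 9.31 to 4.72% ± 2.25 (SD, n = 9 each; limma, adjusted p = 0.000309). Another fall was in an intergenic region 1355715 bp from the nearest start of a protein-coding gene, that of Cox7c, a subunit of cytochrome c oxidase. This region fell from 76.3% ± 4.42 to 52.6% ± 5.41 (SD, n = 9 each, limma adjusted p = 2.35e-05). A coding exon of Osbpl3, an oxysterol-binding protein, fell from 73.4% to 32.5%, but its groups overlapped and the call held in 8 of the 18 fits that each left out 1 library (adjusted p between 0.0135 and 0.0793), being lost without column 2, 3, 4, 5 or 9 of smoked Nrf2-/- or column 1, 4, 5, 8 or 9 of smoked WT. Near Sem1, a proteasome subunit, the fall was -29.6 points (adjusted p = 0.000274), of which 86.2% of the summed change was at 1 cytosine.

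Dlk1 was the only called region that lay in or within 1 kb of a gene of the lists described later. It is a paternally expressed imprinted gene whose protein is a transmembrane relative of the Notch ligands. The called region overlapped a coding exon 6151 bp from the start, where the lowest, median and highest library had 6.8%, 9.66% and 12.1% in smoked Nrf2-/- and 14.2%, 20.6% and 26.4% in smoked WT. All 9 cytosines had a lower mean in smoked Nrf2-/-, and the change was -11.4 ± 1.18 points (SE; limma, adjusted p = 7.39e-05). The Dlk1 start itself stayed below 1% on average in both genotypes, at 0.769% in smoked Nrf2-/- and 0.665% in smoked WT.

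The region near Nog, which encodes the BMP antagonist noggin, was all or none. Of the 7 smoked Nrf2-/- libraries with a value, 6 had between 1.67% and 5.51% and column 6 had 100%, while the 8 smoked WT libraries had 96.7% to 100%. The change was -81.5 points (limma, adjusted p = 0.0111) and was -95.3 points without column 6 (adjusted p = 3.33e-17). In unexposed sperm the Nog region had a median of 96.7% in Nrf2-/- and 98.2% in WT, with single Nrf2-/- libraries as low as 0, and the difference of -22.98 points was not called (adjusted p = 0.862). A region 183766 bp from the nearest start of a protein-coding gene was also all or none. That gene is Tfap2c, a transcription factor of primordial germ cells, and is named here after the values were seen. Among the 7 smoked Nrf2-/- libraries with a value, column 5 had 87.4% and the other 6 had 2.33% to 29.1%, against 89.5% to 99.4% in 6 smoked WT libraries (change -72.02 points, adjusted p = 0.0252). The Tfap2c call held in 6 of the 18 fits without 1 library, and was lost without any of columns 1, 3, 4, 6, 7 and 8 of smoked Nrf2-/- or any of the 6 smoked WT libraries with a value.

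Among the rises, the region with the smallest p lay between genes. The nearest start of a protein-coding gene was that of Mrto4, a ribosome assembly factor. The smoked Nrf2-/- libraries had 46.4%, 49.02% and 50.5% (lowest, median, highest) and the smoked WT libraries 23.4%, 25.9% and 28.4%, a difference of 22.7 ± 0.647 points (SE; limma, adjusted p = 2.2e-13). Its 4 cytosines rose by 19.7 to 29.9 points. Next by p were a coding exon of 4932414N04Rik, which rose from 53.1% to 78.4% (adjusted p = 0.000274), and an intron of Enpp6, a choline-specific phosphodiesterase of myelinating cells, which rose from 13.1% to 24.1% (adjusted p = 0.000276). The groups did not overlap at any of these 3 regions.

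Among the called regions, the largest rise was in an intron of Cacnb4, the beta-4 subunit of voltage-gated calcium channels. The libraries had 64.5%, 74.9% and 90.7% in smoked Nrf2-/- (n = 8) and 24.4%, 46.9% and 59.3% in smoked WT (n = 9), a change of 30.4 ± 4.35 points (SE; limma, adjusted p = 0.00403). An intron of Mir670hg, a microRNA host gene, rose by 22.8 points (adjusted p = 0.00897). An intergenic region near Etv5, an ETS factor that spermatogonial stem cells need for self-renewal, rose by 21.8 points (adjusted p = 0.0101), although it was not called when 80% of its cytosines were required (15.8 points, adjusted p = 0.284). Both called regions of Lmo7, a LIM domain protein of cell junctions, lay in coding exons and rose by 17.5 and 19.4 points (adjusted p = 0.00139 and 0.0376), from 38.2% to 55.7% and from 49.4% to 68.8%. The call of the second held in 7 of the 18 fits without 1 library (adjusted p between 0.0193 and 0.0883), being lost without column 4, 5, 6, 7 or 9 of smoked Nrf2-/- or column 2, 3, 4, 7, 8 or 9 of smoked WT. Coding exons of Lpar6, a receptor for lysophosphatidic acid, and Kcnc1, a voltage-gated potassium channel, rose by 18.8 and 17.4 points (adjusted p = 0.0151 and 0.0262), and an intron of Prdm6, a PR domain protein, by 17.1 points (adjusted p = 0.00486). At Kcnc1 the call held in 11 of the 18 fits without 1 library (adjusted p between 0.00651 and 0.0614), being lost without column 4, 5, 8 or 9 of smoked Nrf2-/- or column 1, 5 or 7 of smoked WT. Dmrt1 and Nr5a1, which encode transcription factors of the developing gonad, are named after their values were seen. A region 24357 bp from the Dmrt1 start rose from 78.8% to 93.05% (adjusted p = 0.000334) and an intron of Nr5a1 from 61.2% to 74.1% (adjusted p = 0.0229), a call lost without column 5 of smoked Nrf2-/-.

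**Figure D2:**
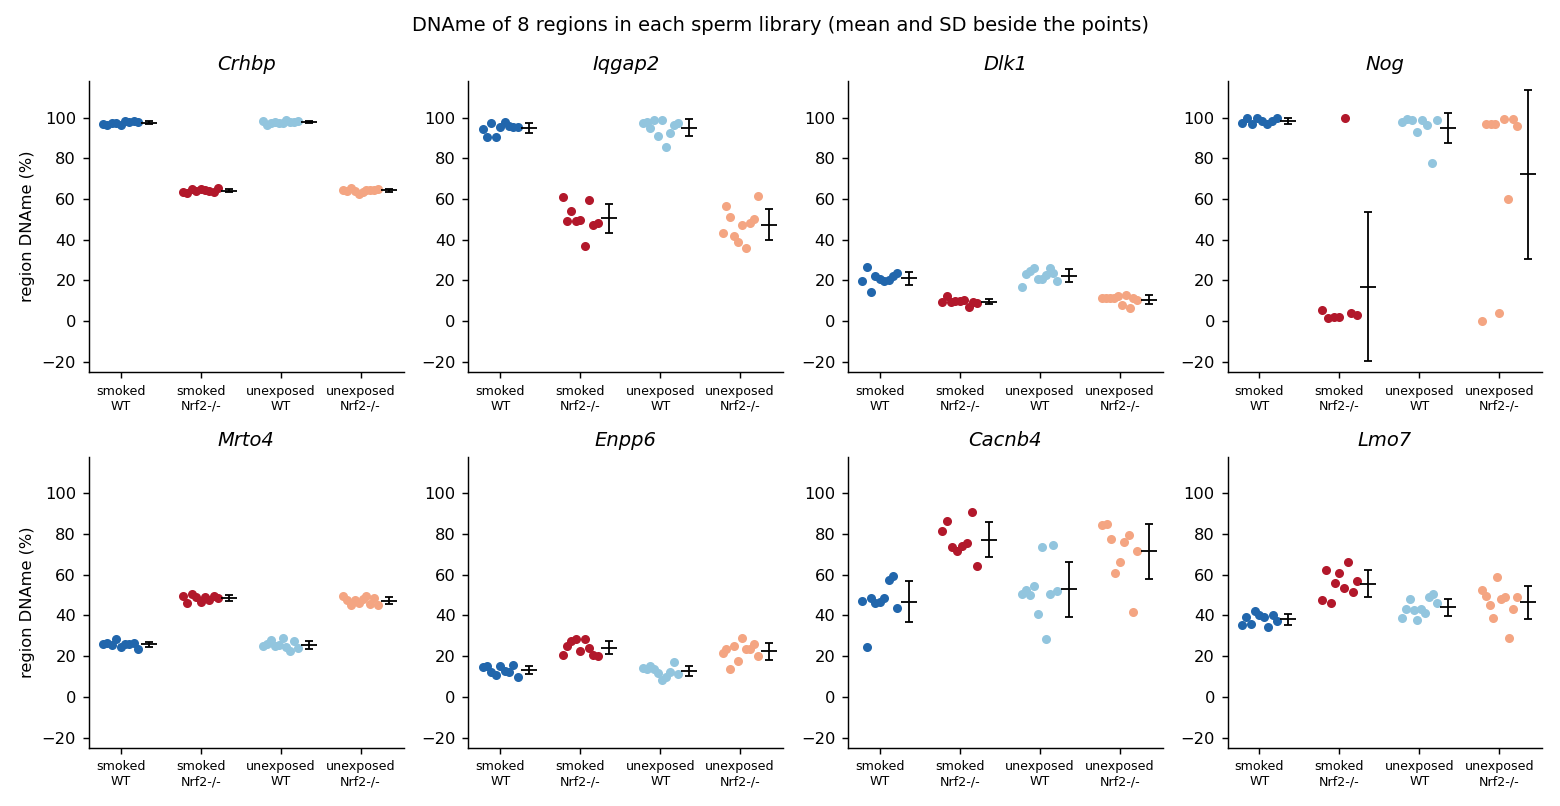
Region DNAme (%) in every sperm library at 8 called regions, with smoked WT, smoked Nrf2-/-, unexposed WT and unexposed Nrf2-/- from left to right and the group mean and SD as black bars. Smoked Nrf2-/- lies below smoked WT at Crhbp, Iqgap2, Dlk1 and, but for 1 library at 100%, Nog, and above it at Mrto4, Enpp6, Cacnb4 and Lmo7.

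The falls and the rises started from different levels. The 66 lower regions had a median DNAme of 87.2% in smoked WT and the 73 higher regions 44.6%, against 8.86% over all tested regions. Outside the 6 segments described later, these medians were 71.2% for the lower and 43.8% for the higher calls. Of the 4616 tested regions between 25% and 75% in smoked WT, 1.17% were called, 45 higher and 9 lower. Above 75%, 0.196% of 25558 regions were called, 6 higher and 44 lower, and below 25%, 0.0967% of 36191 regions, 22 higher and 13 lower. Outside the segments, 0.0689% of 24670 regions above 75% were called, 4 higher and 13 lower. Below 25% it was 0.0884% of 35070 there, 21 higher and 10 lower. Between 25% and 75% it was 1.09% of 4483, 42 higher and 7 lower. A rise is limited near 100% and a fall near 0, so the direction of a call is not free of the level. Promoters (within 1 kb of a transcription start) made up 37.4% of the tested regions and 12.9% of the calls, with 13 higher and 5 lower. Coding exons made up 10.5% of the tested regions and 17.3% of the calls, with 18 higher and 6 lower. Introns made up 24.2% of the tested regions and 28.8% of the calls, with 18 higher and 22 lower, and intergenic regions 25.8% and 35.3%, with 20 higher and 29 lower. Outside the segments, introns had 15 higher and 5 lower calls, intergenic regions 18 and 15, and coding exons 17 and 2. Median CpG density was 4.25 CpGs per 100 bp in the called regions and 4.9 over all tested regions.

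By chromosome, the lower calls were bunched. Chromosomes 2, 6 and 13 held 11, 14 and 12 of the 66 lower calls, 1 lower call or none lay on each of chromosomes 1, 3, 7, 9, 10, 14, 15, 18, 19, X and Y, and the higher calls were spread over all chromosomes but Y. On chromosome 13 the share of tested regions called was 0.456%, on chromosome 6 it was 0.564% and on chromosome 2 it was 0.434%. Chromosome 14 held 7 calls, all higher. Without chromosomes 2, 6 and 13, and with p adjusted over the remaining 55254 regions, 66 regions were called, 45 higher and 21 lower.

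**Figure D3:**
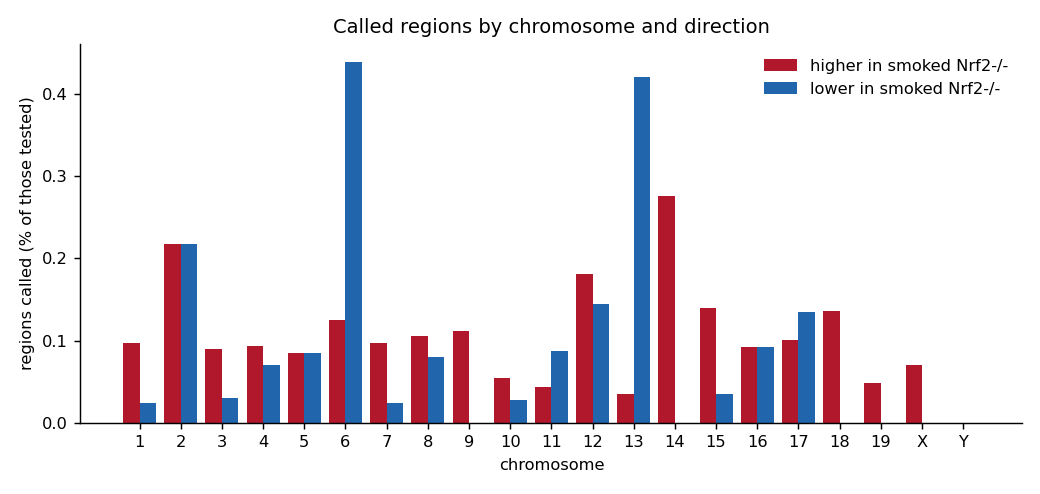
Regions called by limma as a percent of the regions tested on each chromosome, higher (red) and lower (blue) in smoked Nrf2-/-. Lower calls stand out on chromosomes 6 (14 calls) and 13 (12 calls), and chromosome 2 has 11 in each direction.

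The genotypes also differed in which cytosines could be read at all. In the smoked groups, 954 cytosines had a value in at least 8 of 9 WT and 0 of 9 Nrf2-/- libraries, and 296 the reverse. The 954 were 0.12% of the 792685 cytosines read in at least 8 WT libraries. The 296 were 0.0436% of the 678597 read in at least 8 Nrf2-/- libraries. To place these cytosines of 1 genotype without the smoked data, segments were drawn from the unexposed libraries. A segment lay wherever at least 20 cytosines read in 1 genotype alone followed each other at most 5 Mb apart. There were 6 segments, at chr2:54040088-76423629, chr2:169302262-173136624, chr6:3248921-17485846, chr6:46801520-52094287, chr11:103743381-110598957 and chr13:75774682-108498022. The first of them began 21.7 Mb to one side of the Nfe2l2 start and ended 0.719 Mb to the other. The segments held 87.9% of the cytosines read in smoked WT only, 92.6% of those read in smoked Nrf2-/- only and 47 of the 51 switched cytosines, but 3.23% of the tested regions. Inside them 1.96% of 2142 tested regions were called, 6 higher and 36 lower, and outside them 0.151% of 64223, 67 higher and 30 lower. With p adjusted over the regions outside alone, 51 higher and 23 lower regions were called. All 20 lower calls with a switched cytosine but Creb5 lay inside the segments, and so did Crhbp, Aggf1, Iqgap2, Pla2r1, Tanc1 and Cox7c. Dlk1, Nog, Mrto4, Enpp6, Cacnb4 and Lmo7 lay outside, Cacnb4 at 23.2 Mb from the Nfe2l2 start against 21.7 Mb for the segment edge. Cacnb4, Creb5, Osbpl6 and the calls near Samd9l all lay within 5 Mb of a segment edge, so the counts outside are not clear of the segments.

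**Figure D4:**
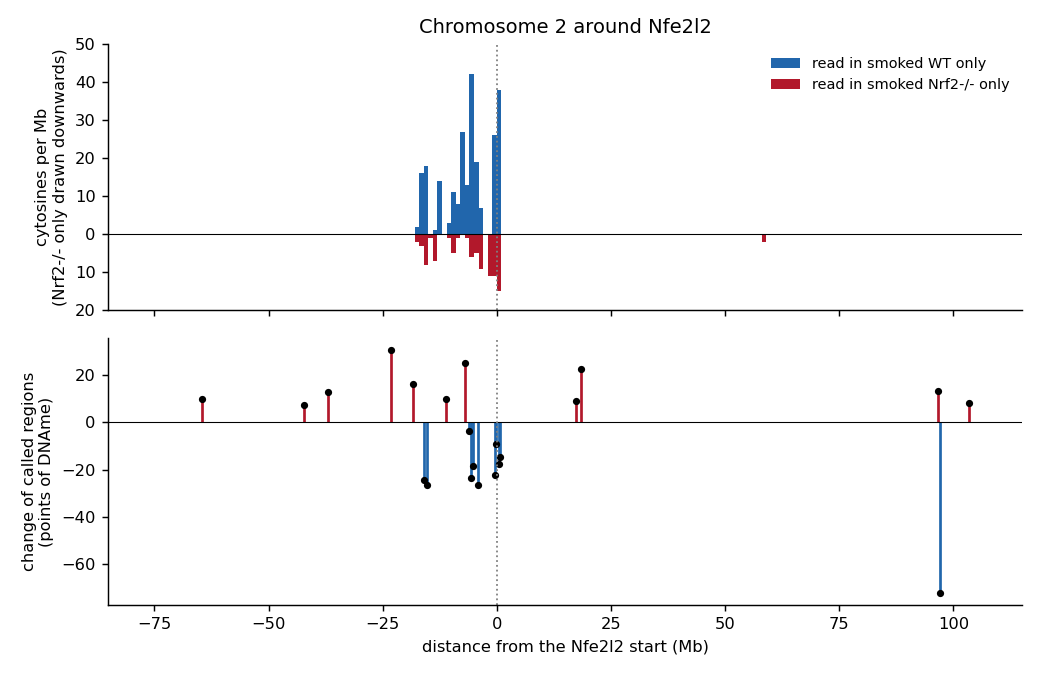
Chromosome 2 by distance (Mb) from the Nfe2l2 start (dotted line). Top, cytosines per Mb read in at least 8 of 9 libraries of 1 genotype and in none of the other, with smoked WT only upwards and smoked Nrf2-/- only downwards, and below, the change in points of DNAme at the 22 regions called on this chromosome. Most such cytosines and 10 of the 11 falls lie from 16.03 Mb on one side to 0.743 Mb on the other side of Nfe2l2.

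Within the smoked Nrf2-/- group, libraries differed in 2 segments. Of the cytosines that the unexposed Nrf2-/- libraries alone read in the distal segment of chromosome 2, columns 2, 5 and 9 read 0% and the other 6 columns 68.8% to 97.9%. Column 5 was the library at 87.4% at the Tfap2c region of that segment, and columns 2 and 9 had no value there. In the chromosome 11 segment, columns 3 and 6 read 8.57% and 54.3% of such cytosines and the other columns 80% to 100%. Of the 193 and 309 tested regions of these segments, 2 and 3 were called. The 3 calls on chromosome 11 held without column 3 and without column 6, and the Tfap2c call held without column 2, 5 or 9. The other call of the distal segment, in an intron of Cass4, which encodes a scaffold protein of focal adhesions and is named for completeness after its values were seen, held without column 2 and was lost without column 5 or 9. Unexposed Nrf2-/- libraries also stood apart. Of the cytosines that smoked WT alone read in the chromosome 6 segments, control column 10 read 92.1% and 97.6% and control column 2 read 75.1% in the first segment, while the other control Nrf2-/- values were at most 2.44%. Of those that smoked Nrf2-/- alone read in the chromosome 11 segment, control columns 8 and 10 read 0%.

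The unexposed libraries, which share no sample with the smoked ones, gave a second comparison of the genotypes at the called regions. Their facility numbers split in the same way, 1 to 17 for control Nrf2-/- and 21 to 66 for control WT, so that here too genotype and these numbers cannot be told apart. The sign of the difference between control Nrf2-/- and control WT sperm was the same at 137 of the 139 calls, 71 of the 73 higher and all 66 lower, against 36669 of the 65585 regions tested in both. Of the 139, 102 had an unadjusted p below 0.05 there (limma), against 4197 of the 65585 regions, or 6.4%. In the unexposed libraries themselves 161 regions were called (limma, 0.245% of those tested), 51 higher and 110 lower, and 52 regions were called in both, which is 37.4% of the smoked calls and 32.3% of the unexposed ones. Without control Nrf2-/- column 2, 8 or 10, the libraries that stood apart, the unexposed count was 133, 144 or 183. The 3 regions with the smallest p in unexposed sperm were those of Crhbp, Aggf1 and Myo3b, with changes of -33.5, -32.5 and -22.4 points. At Mrto4 the unexposed libraries differed by 21.6 points, at Iqgap2 by -47.6, at Pla2r1 by -26.4 and at Dlk1 by -11.8 (limma, adjusted p = 2e-12, 1.08e-09, 3e-08 and 5.41e-06).

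For the 36 lower calls inside the segments the median change was -19.4 points in smoked and -20.5 points in unexposed sperm. For the 30 lower calls outside it was -10.5 and -7.36 points. For the 73 higher calls it was 11.5 and 6.18 points, and for the 67 of them outside the segments 11.5 and 5.85 points. The unexposed change was larger than the smoked at 15 of the 36 lower calls inside the segments, 6 of the 30 lower calls outside and 9 of the 67 higher calls outside, and rises were not tested against falls. The regions were chosen by their smoked values, so their changes in smoked sperm are a description. At the first Lmo7 region the unexposed difference was 2.34 points (46.4% against 44.03%), at Lpar6 3.73, at Prdm6 7.42 and at Cacnb4 18.6, all not called (limma, adjusted p between 0.136 and 0.916). The difference between the smoked and the unexposed change was tested in a fit over all 4 groups. No region was called among 65585 (limma, 0% called), and 2364 regions, 3.6%, had an unadjusted p below 0.05. With the fit over all F0 sperm groups and on the arcsine scale, 0 were called and 2748 and 2674 had an unadjusted p below 0.05. The 3 smallest p of this test fell near Ccdc121 (difference of changes 10.7 points), in an intron of Prkce (-9.71 points) and near Tspan17 (6.06 points), at unadjusted p = 2.65e-05, 3.85e-05 and 6.67e-05 (limma). None of them was called in the smoked comparison, but the regions of Ccdc121 and Tspan17 were called there in some fits without 1 library (limma, lowest adjusted p = 0.0132 and 0.0348).

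**Figure D5:**
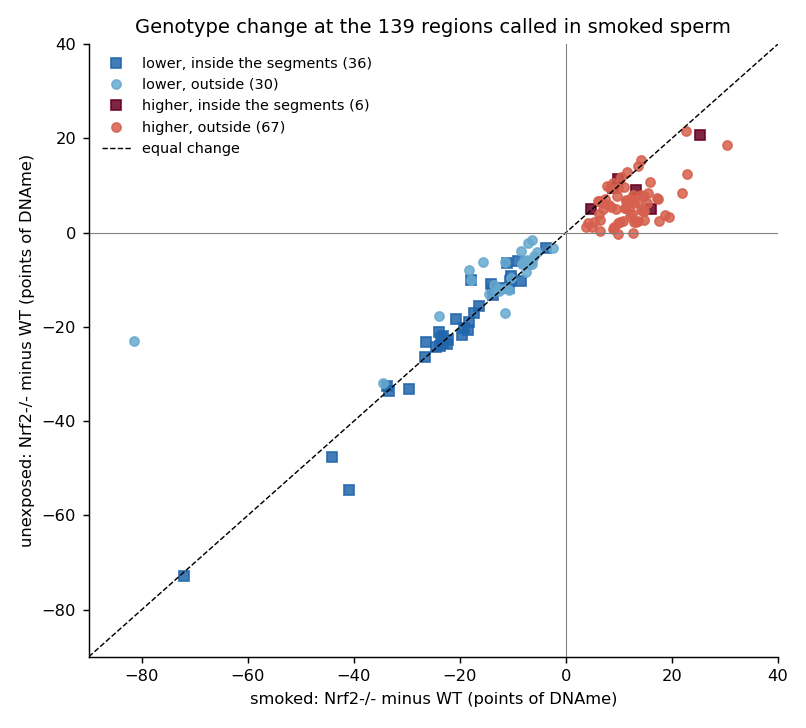
Change between genotypes in unexposed sperm against that in smoked sperm (both in points of DNAme, Nrf2-/- minus WT) at the 139 regions called in smoked sperm, with squares for regions inside the 6 segments, circles for those outside, and a dashed line of equal change. Lower calls inside the segments have medians of -19.4 (smoked) and -20.5 points (unexposed) and those outside -10.5 and -7.36, with Nog farthest from the line at -81.5 against -22.98, and most higher calls lie below it.

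Sperm of WT males taken after longer times without smoke gave a further reference for the level in WT. Because the regions were chosen by their smoked values, the places of smoked WT and smoked Nrf2-/- among the groups follow in part from that choice. A trend with time after smoke was not tested. Over the 73 higher calls, the median library had 44.3% in smoked WT, 44.9%, 47.5% and 47.8% in the 3 successive recovery groups and 48.1% in control WT, and 58.3% in smoked and 55.6% in control Nrf2-/-. The smoked WT libraries, from 40.6% to 48.4%, overlapped every other WT group, and the control Nrf2-/- libraries, from 49.01% to 57.4%, overlapped the control WT libraries, from 44.6% to 51.2%. Over the 30 lower calls outside the segments, the median library had 51.3% in smoked and 58.4% in control Nrf2-/- sperm and 69.1% and 67.7% in smoked and control WT. The control groups overlapped there, at 44.004% to 65.7% in Nrf2-/- and 60.7% to 73.3% in WT. Over the lower calls inside the segments, the median library had 71.02% in smoked and 71.6% in control Nrf2-/- sperm and between 92.5% and 93.9% in the 5 WT groups.

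In F1 brain, prefrontal cortex of sons of smoked Nrf2-/- sires (n = 8) was compared with that of sons of smoked WT sires (n = 8) on the same regions. The facility numbers of these brain libraries also split by sire genotype, so that genotype and these numbers cannot be told apart in brain. limma called 4 of 63894 regions (0.00626%), all on chromosome 2, within the segment at Nfe2l2 or, at Osbpl6, beyond its end and 0.743 Mb from the Nfe2l2 start. An unadjusted p below 0.05 was found for 6192 regions (limma, 9.69% of those tested), and for 4495 to 8108 when 1 brain library was left out. Of the 4 calls, 3 had been called in sperm. An intron of Osbpl6 had 38.2% ± 2.29 in sons of Nrf2-/- sires and 82.9% ± 2.26 in sons of WT sires (SD, n = 8 each; adjusted p = 5.66e-12), against 32.3% and 46.7% in smoked sperm. At Tanc1 the brain values were 68.6% and 82.9% and at the coding exon of Pde11a, a cyclic nucleotide phosphodiesterase, 69.6% and 82.9% (adjusted p = 0.000133 and 0.0213). The falls at Tanc1 and Pde11a were -14.3 and -13.3 points in brain and -24.5 and -17.4 points in sperm. The single higher call, at a promoter whose nearest gene was Hnrnpa3, had 10.8% against 6.54%, and its sperm difference of 2.54 points was not called (adjusted p = 0.243). The brain calls at Osbpl6 and Tanc1 held in all 16 fits that each left out 1 brain library. The call at Pde11a held in 9 of the 16 (limma, adjusted p between 0.00731 and 0.078), being lost without column 1, 2, 3 or 8 of the Nrf2-/- sires or column 1, 2 or 6 of the WT sires. The call at Hnrnpa3 held in 5 of the 16 (limma, adjusted p between 0.0069 and 0.106), being lost without column 1, 2, 3, 6 or 8 of the Nrf2-/- sires or column 1, 2, 3, 4, 6 or 7 of the WT sires. Over all 139 sperm calls, 74 had the same sign in brain, 20 of the 73 higher and 54 of the 66 lower, against 31407 of the 63894 regions tested.

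Osbpl6, an oxysterol-binding protein gene, showed how a region mean can hide its cytosines. In sperm its inner pair of cytosines read 0 and 1.05% in smoked Nrf2-/- against 67.4% and 69.6% in smoked WT, and its outer pair 63.97% and 64.02% against 26.8% and 23.3%. The region mean fell by 14.5 points (adjusted p = 0.000523). When both strands of each CpG were averaged first, the region differed by 3.87 points in the other direction and was not called (adjusted p = 0.91).

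Regions of NRF2 pathway genes included 0 calls, in lists too short to tell this from the 0.209% called over all tested regions. Of the 17 genes listed as NRF2 and its partner factors, 16 had a tested region, 52 regions in all, with a median change of -0.0823 points. The promoter region of Nfe2l2 stayed near 0 in both genotypes and differed by 0.553 points (adjusted p = 0.771), and the largest difference with an unadjusted p below 0.05 was at an intron of Bach2, a repressor at the same DNA elements, with 4.47 points (adjusted p = 0.138). The 47 listed NRF2 target genes had 93 tested regions in 35 genes, a median change of 0.0689 points and 0 calls. The nearest to a call was the promoter of Gclc, the catalytic subunit of glutamate-cysteine ligase, the rate-limiting enzyme of glutathione synthesis. It had 36.5% ± 2.48 in smoked Nrf2-/- and 43.02% ± 3.64 in smoked WT (SD, n = 9 each), a difference of -6.51 points with an adjusted p of 0.0855, and differed by -6.67 points in unexposed sperm. At Nqo1, the quinone reductase, the single region differed by 6.94 points (adjusted p = 0.869), and at Hmox1, heme oxygenase, the regions differed by -2.02 to 0.208 points. Of the 93 target regions 7 had an unadjusted p below 0.05 (limma, 7.53%), 2 higher and 5 lower. They included larger differences, at Slc7a11 (-23.6 points), Tkt (-9.16), Gsta4 (-9.15) and Abcc4 (7.85), that were not called (limma, adjusted p between 0.38 and 0.763).

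The other lists held 0 calls apart from Dlk1, and with 13 to 80 regions each they too are short beside a share of 0.209%. The pathway of AHR, the receptor of aromatic hydrocarbons of smoke, had 30 regions with a median change of 0.0222 points. Oxidative DNA repair had 37 regions (-0.14 points), DNAme writers and erasers 80 (0.0312 points), sperm chromatin genes 38 (-0.024 points), germline genes 44 (0.152 points), and maternally and paternally imprinted genes 38 and 13 (0.0355 and -0.00215 points). The share of regions with an unadjusted p below 0.05 ranged from 2.27% in the germline list to 15.4%, 2 of 13, in the paternally imprinted list, against 6.3% of all regions. An intron of Ctcfl, a testis-specific relative of CTCF, had 72.9% against 56.8%, a difference of 16.2 points with an adjusted p of 0.0931. This region lay in the distal segment of chromosome 2, where the smoked Nrf2-/- libraries differed among themselves, and it differed by 3.87 points in unexposed sperm.

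Regions in the ribosomal RNA copies of chromosome 17 had lower values in smoked Nrf2-/-. Between 39843001 and 39848799 lay 6 tested regions, annotated to Gm26917, CT010467.1 and AY036118, and a region of chromosome 6 near Samd9l shared at least 50% of its 20-base words with them. Only regions that met this rule were grouped, so ribosomal sequence elsewhere in the genome may lie outside these 7. All 7 were lower in smoked Nrf2-/- and in unexposed Nrf2-/- sperm, with changes of -8.34 to -3.01 points in the smoked comparison. In smoked sperm 4 were called, against 0.209% of all tested regions. In unexposed sperm 0 were called (limma, adjusted p between 0.188 and 0.687) and 7 of 7 had an unadjusted p below 0.05, against 6.4% of all regions there. In F1 brain all 7 were lower in sons of smoked Nrf2-/- than of smoked WT sires, by -7.77 to -2.06 points. None was called in brain (limma, adjusted p between 0.42 and 0.708). They were grouped after their values were seen. At AY036118 the level was 8.55% ± 1.56 in smoked Nrf2-/- and 15% ± 2.8 in smoked WT (SD, n = 9 each; adjusted p = 0.0104). Ribosomal RNA genes are present in many copies, which short reads cannot tell apart, so these values are uncertain as to the copy they come from, and the 7 regions are not independent.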

How the data were processed

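The deposited tables held 1 group each, with a methylation percent per cytosine and library. Per the labels, the authors aligned to mm10 with Bismark. Its version, and whether a read minimum was applied before deposit, are not given in the sources used here. The study's methods scored CpGs above a read minimum, which could not be applied here because the deposited tables used hold no read counts. All cytosines and DMRs were thus scored without it. The depth is unknown and errors are spreads between libraries, each a separate sample by the labels. Column headings are facility numbers that match no sample label, so columns carry the group of their table and are named by order (0 unused columns).

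The members, lists and comparisons were chosen with earlier results of these data known. A library's region value was its mean deviation from the cytosines' base level (the mean of both group means) plus the region's mean base level, where at least 50% of the cytosines had a value. It can thus pass 0 or 100. limma 3.58.1 (R 4.3.3) fitted group means over all regions with values in at least 4 libraries per group, and p-values were adjusted by Benjamini-Hochberg. The fit was tested on simulated data. Single values were tested by permutation over all splits, which is exact for the mean but not for the scatter. Regions were annotated with GENCODE vM21 on GRCm38, and sequences came from that genome. Named regions were limma calls that were DMRs with at least 7 libraries per group: the 10 largest falls and rises, the 3 smallest p per direction, and any call at a listed gene. The 3 smallest p of the other fits were added. Alternatives were other library, region and strand rules, scales and fits, and leaving out each library. F1 sperm was not used.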

Additional observations from a re-analysis of the deposited data

Results flagged for a closer look

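In 62 groups of 4 to 10 libraries the highest or lowest value was set against the others (Dixon's ratio at its 95% critical value). Chance alone sets apart a value in about 1 in 20 such groups, and 8 values stood apart. In smoked WT, column 2 had the largest spread from the rest of its group, 1.464 points against 0.916 to 1.167. The same column was the lowest at the Cacnb4 region, with 24.39% against 43.7% to 59.34%, and at the 4932414N04Rik region, with 41.4% against 50.43% to 58.33%. Column 6 of smoked WT was the lowest at the Etv5 region, with 40.56% against 55.62% to 71.08%. In smoked Nrf2-/-, column 6 had 100% at the Nog region while the other 6 libraries had 1.667% to 5.508%. Column 7 was the lowest at the Aggf1 region, with 57.87% against 60.96% to 63.92%. Column 1 was the highest at the Mir670hg region, with 97.04% against 74.86% to 85.45%, and column 4 at the Prkce region, with 19.5% against 14.84% to 15.56%. The calls at Cacnb4, 4932414N04Rik, Etv5, Nog, Aggf1 and Mir670hg held in all 18 fits that left out 1 library.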

How the results depend on the processing

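The difference in mean DNAme stayed within the spread between libraries under every alternative (0.11 to 1.15 points without 1 library), as did the difference in spread (0.0499 to 0.149 points). The limma count ranged from 96 to 159 without 1 library. It moved by over 1.5 times with all F0 groups in the fit (259), with at least 5 cytosines per region (86), without chromosomes 2, 6 and 13 (66) and without the segments (74), the last 2 chosen after seeing the data. Higher calls were 52.5% of the main count but 40% under a trended robust fit (38 of 95). DMRs by size numbered 961 at a change of 10 points, 2593 with at least 6 libraries per group, 8450 with joining at 300 bp, 1868 with at least 5 cytosines and 4008 to 4429 without 1 library. Unexposed calls numbered 255 with all F0 groups in the fit and 123 to 183 without 1 library, brain calls 13 with all brain groups (where 1 control WT sample carries an Nrf2-/- strain label against its WT title, which placed it) and 2 to 8 without 1 library (2 without smoked Nrf2-/- sire column 1, 2 or 8 or smoked WT sire column 1, 2 or 6, 7 without Nrf2-/- column 4, 8 without WT column 8), and the difference between smoked and unexposed changes gave 0 without any library. Of the 139 calls, 83 held without each library in turn and 60 under every alternative, 36 lower and 24 higher. Osbpl6 reversed to 3.87 points with strands averaged. Where no value above shows it, the cause was not tested. No paired analysis was possible because the columns carry no replicate numbers.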
